A study of Mus musculus with 12 samples.

Results

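Mitosis genes encode the machinery that condenses, aligns and separates the chromosomes and then splits the cell. Here a list of 42 of them was examined in angiogenic and non angiogenic islets of RIP1-Tag2 mice. The list was set by gene symbol and not by a cut on measured values. It was chosen with earlier results of these data known. A gene was taken when its symbol was the only symbol of a transcript cluster on the array, with the brightest cluster by the mean over all arrays where a gene had several. This gave 41 of the 42 mitosis genes among the 19938 genes measured on the arrays. Ccnb1, which encodes cyclin B1, has no cluster with a single symbol in the annotation used here and is not analysed as a level.

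In RIP1-Tag2 mice the rat insulin promoter drives the SV40 large T antigen in the beta cells of the pancreas, so the islets pass through hyperplasia toward tumors, and a subset of them becomes angiogenic. Both groups carried this transgene on a C57BL/6 background and came from animals 8 weeks of age, and islets of mice without the transgene were not compared here. Islets freed by collagenase and a density gradient were sorted by their appearance into angiogenic and non angiogenic pools. Total RNA of each pool (200 ng) was hybridized to its own Affymetrix mouse gene array, with 6 arrays of angiogenic and 6 of non angiogenic islets numbered 1 to 6 in each group. The number of mice and islets behind each pool is not in the labels, nor whether any mouse gave to several pools, so a p-value here measures only the spread between pools, which may be technical. Levels are log2 values made with the RMA method, and array medians lay between 7.30 and 7.38. Each comparison below is angiogenic minus non angiogenic on this scale, fitted with limma over all 19938 genes and called at a Benjamini-Hochberg adjusted p under 0.05.

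Entry into mitosis is driven by the kinase CDK1 with its cyclins, together with the Aurora and Polo-like kinases. The spindle checkpoint holds the cell until every kinetochore is attached, and the anaphase-promoting complex with its activator CDC20 then releases separase, which cuts the cohesin between sister chromatids. Kinesin motors move chromosomes and spindle microtubules, and the central spindle and contractile ring divide the cell. Most of these genes are transcribed late in the cell cycle, and in tissues their transcripts mark cycling cells. The T antigen binds the retinoblastoma protein and p53, which relieves control of the cell cycle in the beta cells of this model.

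The mitosis genes were slightly higher in angiogenic islets. Of the 41 genes, 12 passed the test and were higher, 0 were lower, and 29 did not pass, against 3.55% of all genes called higher and 0.948% called lower. The 12 were Kif4, Kif20a, Cdc20, Plk1, Aurka, Cenpe, Bub1b, Mki67, Incenp, Ccna2, Aurkb and Birc5, with log2 differences between 0.21 and 0.37, or 1.15-fold to 1.29-fold. The difference was positive for 40 genes and negative for 1, Pttg1. The median difference over the 41 genes was 0.23, which is 1.17-fold, beside -0.02 over all genes, of which 40.1% were positive. At an unadjusted p under 0.05, 34 of the 41 genes were higher and 0 lower in limma, against 7.76% and 6.59% of all genes. The count of 12 moved with the arrays used: it was 7 without non angiogenic array 2, 7 without angiogenic array 4, 6 without angiogenic array 5 and 5 without angiogenic array 6, where 3.04%, 2.77%, 2.87% and 2.92% of all genes were higher. It was 6 with the methods' t-test after adjustment and 20 after quantile normalization, against 2.94% and 3.74% of all genes, while the median difference lay between 0.21 and 0.25 under every setting tried. In pooled islets, more cycling cells and more of these transcripts per cell cannot be told apart.

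**Figure D1:**
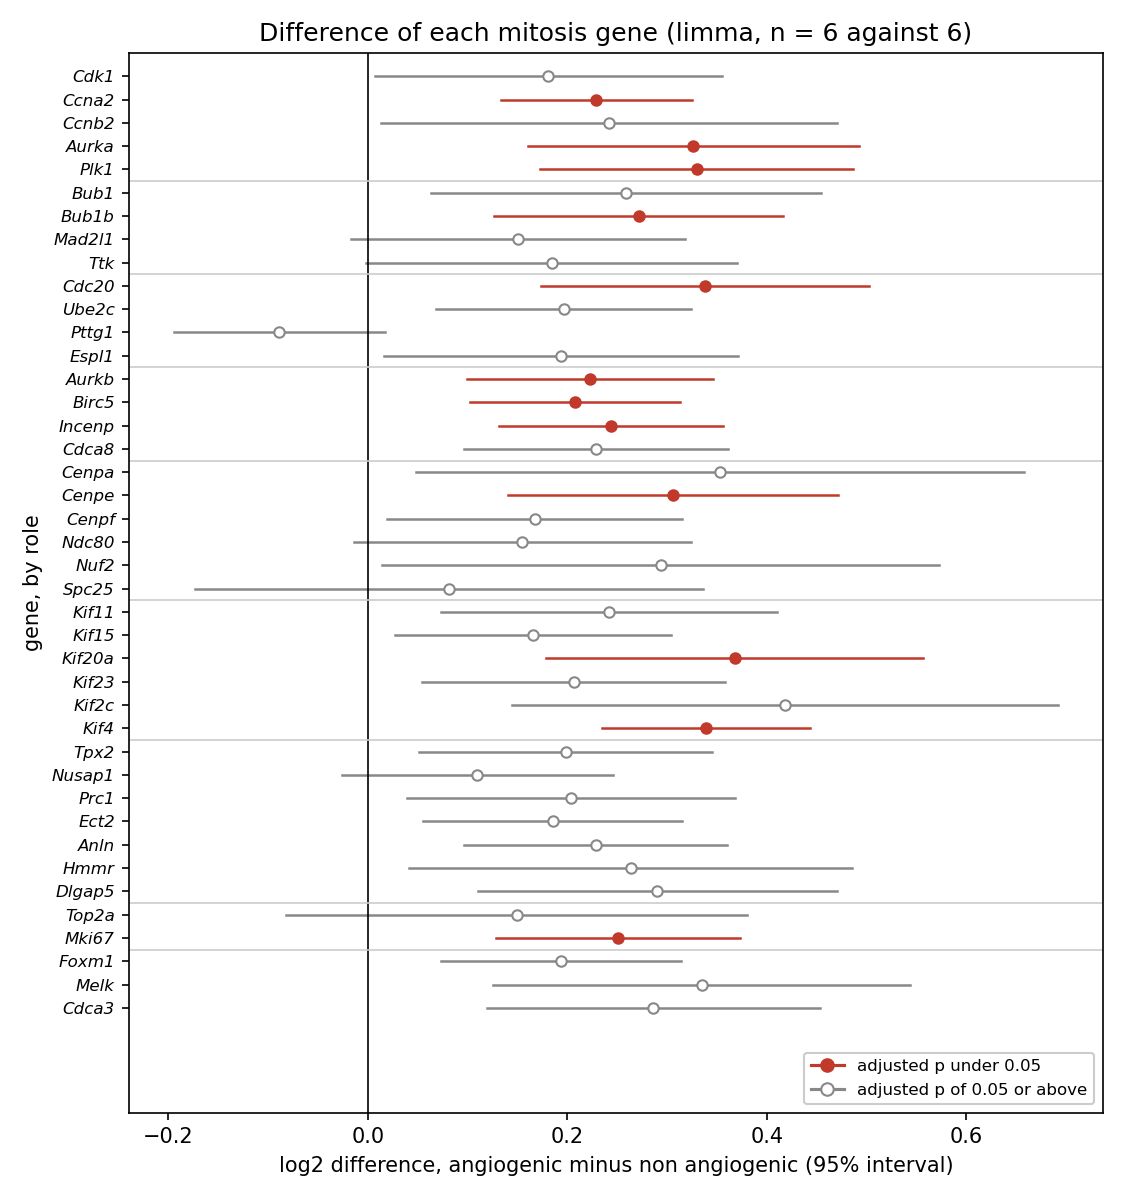
Log2 difference of each of the 41 mitosis genes between angiogenic and non angiogenic islets (x axis), with the 95% interval from limma on 6 against 6 arrays, ordered by role (y axis). Red filled points are the 12 genes past the threshold, open grey points the 29 that were not, and Pttg1 is the gene left of 0.

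Promoters of late cell cycle genes are known for 2 short elements, the CCAAT box, bound by the factor NF-Y, and the cell cycle genes homology region (CHR), bound by the MuvB complex with B-Myb or FOXM1. RefSeq promoters (GRCm38.p6, 250 bases before to 50 after the annotated start) were found for 35 of the 42 mitosis genes, 37 promoters in all. Aurkb, Ccna2, Dlgap5, Foxm1, Incenp, Kif20a and Tpx2 are named without one. The letters CCAAT and, for the CHR, TTTGAA or TTCGAA were searched on both strands. TTCGAA reads the same on both strands, and neither CHR string contains CCAAT. The following stretches, 110 bases before to 30 after the start on the gene's strand, show the arrangement in genes of mitotic entry (Cdk1, Ccnb2), the checkpoint (Bub1), anaphase (Cdc20, Ube2c) and chromosome motors (Kif4). Capitals mark CCAAT boxes (CCAAT, or ATTGG when on the other strand) and CHR elements (TTTGAA, its reverse TTCAAA, or TTCGAA), and the stretches were chosen among promoters with both elements inside the window.
Cdk1 (chr10:69352883-69353022, minus strand): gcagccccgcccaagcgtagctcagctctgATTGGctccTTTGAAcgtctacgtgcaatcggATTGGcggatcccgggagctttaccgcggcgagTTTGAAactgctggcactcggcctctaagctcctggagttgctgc
Ccnb2 (chr9:70421525-70421664, minus strand): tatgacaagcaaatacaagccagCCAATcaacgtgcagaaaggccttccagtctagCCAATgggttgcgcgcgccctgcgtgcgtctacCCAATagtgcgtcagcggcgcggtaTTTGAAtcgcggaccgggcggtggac
Bub1 (chr2:127831830-127831969, minus strand): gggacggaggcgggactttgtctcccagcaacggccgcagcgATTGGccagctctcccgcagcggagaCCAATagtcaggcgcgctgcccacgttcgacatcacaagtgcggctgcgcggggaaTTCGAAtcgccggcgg
Cdc20 (chr4:118437314-118437453, minus strand): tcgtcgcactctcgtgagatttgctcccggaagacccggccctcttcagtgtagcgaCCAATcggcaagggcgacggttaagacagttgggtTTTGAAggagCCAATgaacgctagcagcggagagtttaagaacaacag
Ube2c (chr2:164769819-164769958, plus strand): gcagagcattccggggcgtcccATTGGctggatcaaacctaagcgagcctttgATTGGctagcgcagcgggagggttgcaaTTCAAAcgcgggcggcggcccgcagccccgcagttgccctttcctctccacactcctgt
Kif4 (chrX:100625955-100626094, plus strand): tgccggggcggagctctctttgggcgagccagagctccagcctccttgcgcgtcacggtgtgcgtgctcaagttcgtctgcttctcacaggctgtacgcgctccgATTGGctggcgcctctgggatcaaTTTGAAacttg

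The CHR letters were common in these promoters. TTTGAA or TTCGAA was found in 78.38% of the 37 promoters of mitosis genes, against 16.48% of the 19177 promoters of all genes on the arrays. Within 30 bases of the start it was found in 59.46%, against 2.71%. CCAAT was found in 72.97%, against 37.39%, 2 or more CCAAT boxes in 51.35%, against 12.37%, and both elements in 67.57%, against 6.56%. In the 250 bases before the start alone, the CHR letters were in 37.8% of the promoters of mitosis genes and in 14.8% of all, since many of the elements lie just after the annotated start. Promoters of the other mitosis genes held the CHR letters in 61.43%, CCAAT in 71.43% and both in 45.71%. Promoters of DNA replication genes held the CHR letters in 16.22% and CCAAT in 64.86%. The 6 genes without either were Birc5, Mad2l1, Melk, Nuf2, Nusap1 and Pttg1. Of the 23 measured genes with both elements, 6 were higher, with a median difference of 0.24. Of the 11 measured genes whose promoter lacks one or both, 2 were higher, with a median of 0.21. Of all genes 3.55% were higher. The genes without a promoter here are in neither count, among them Aurkb, Ccna2, Incenp and Kif20a, which were higher. Whether the elements go with the difference was not tested. A match is a description of the letters and not of binding.

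**Figure D2:**
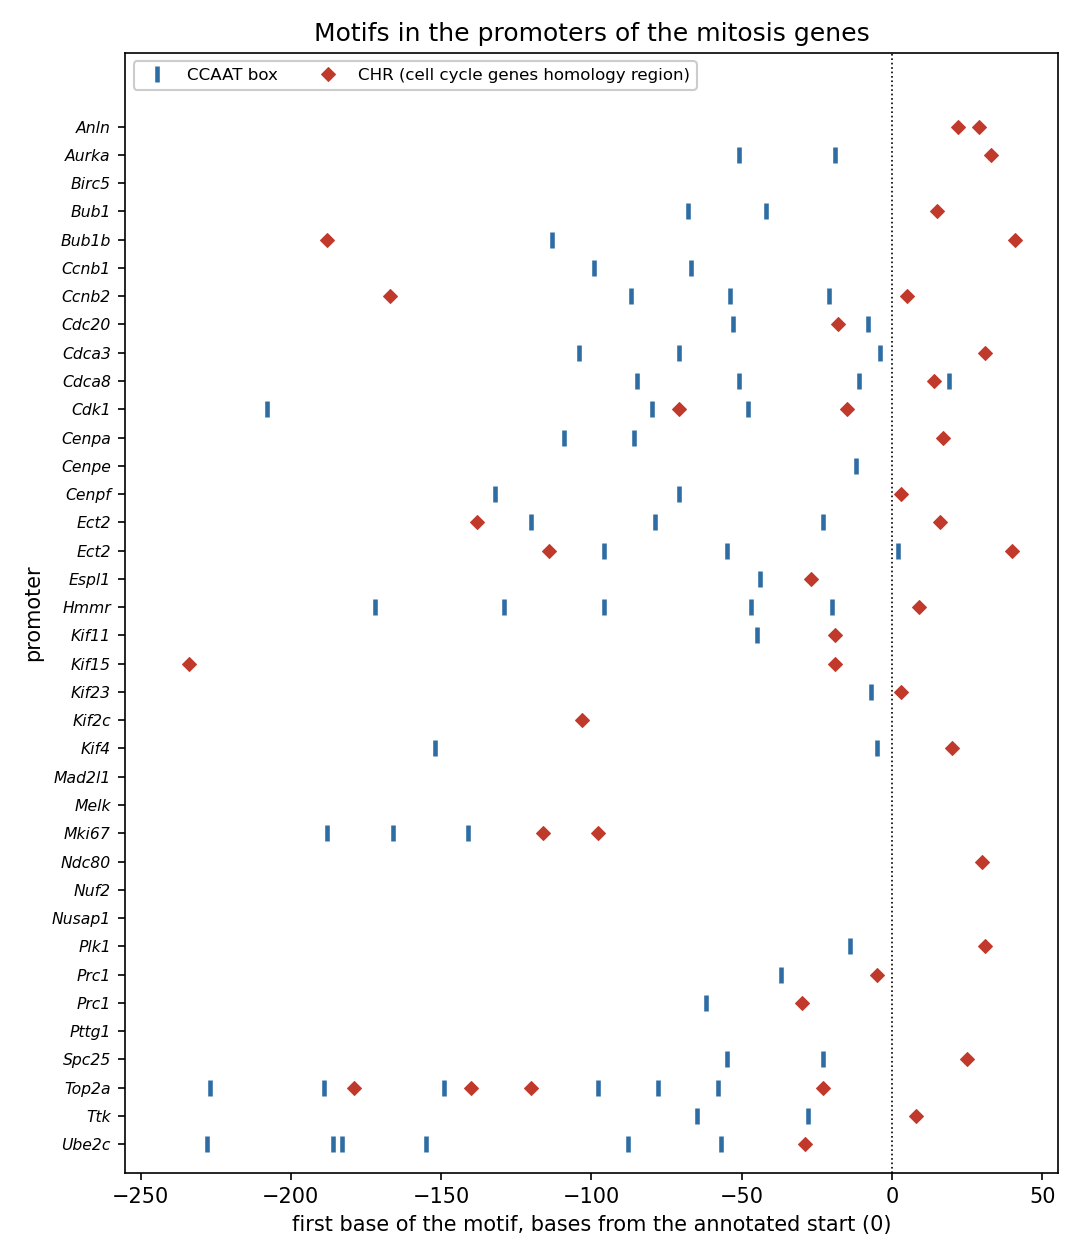
Position of each CCAAT box (blue bars) and CHR element (red diamonds) in the 37 promoters of 35 mitosis genes (y axis), as bases from the annotated start to the first base of the element (x axis). CHR elements gather around the start and CCAAT boxes mostly before it, and 6 promoters hold neither.

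Among the mitotic kinases and cyclins, 3 of 5 measured genes were higher, with a median difference of 0.24. Ccna2, encoding cyclin A2, lay between 11.57 and 11.69 (median 11.68) in angiogenic and between 11.33 and 11.47 (median 11.41) in non angiogenic islets. The groups did not overlap, and the difference was 0.23 (SE 0.04, n = 6 per group, limma adjusted p = 0.0065). Aurka, the centrosomal Aurora kinase, lay between 9.33 and 9.58 (median 9.46) in angiogenic and 8.90 and 9.31 (median 9.20) in non angiogenic islets. Its ranges nearly touched without overlap (9.33 against 9.31), and the difference of the means was 0.33 (SE 0.08, limma adjusted p = 0.0248). Plk1, the Polo-like kinase of mitotic entry, ranged from 10.10 to 10.48 (median 10.31) in angiogenic and from 9.80 to 10.19 (median 9.96) in non angiogenic islets. Angiogenic array 3 fell inside the non angiogenic range, and the difference was 0.33 (SE 0.07, limma adjusted p = 0.0166). The partners of mitotic entry did not pass: Cdk1 differed by 0.18 (SE 0.08, limma adjusted p = 0.319) and Ccnb2, cyclin B2, by 0.24 (SE 0.11, limma adjusted p = 0.306). Both intervals stayed just above 0, at 0.01 to 0.36 for Cdk1 and 0.01 to 0.47 for Ccnb2.

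Of the 4 spindle checkpoint genes, 1 was higher. Bub1b, which encodes the checkpoint protein BUBR1, lay between 9.12 and 9.38 (median 9.28) in angiogenic and 8.81 and 9.16 (median 8.99) in non angiogenic islets. The ranges overlapped slightly, and the difference was 0.27 (SE 0.07, limma adjusted p = 0.0323). The checkpoint kinase gene Bub1 differed by a like amount with a wider error, 0.26 (SE 0.09, limma adjusted p = 0.16). Ttk, the kinase MPS1, differed by 0.18 (SE 0.09) and Mad2l1, which encodes MAD2, by 0.15 (SE 0.08), and neither passed.

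Of the 4 genes of anaphase onset, Cdc20 was higher. Its level, that of the activator of the anaphase-promoting complex, lay between 9.44 and 9.80 (median 9.52) in angiogenic and 9.10 and 9.49 (median 9.15) in non angiogenic islets. Non angiogenic array 3 reached into the angiogenic range while the other 5 lay below it, and the difference was 0.34 (SE 0.08, limma adjusted p = 0.0193). The ubiquitin-conjugating enzyme Ube2c differed by 0.20 (SE 0.06, limma adjusted p = 0.0886) and the separase gene Espl1 by 0.19 (SE 0.08, limma adjusted p = 0.283). Pttg1, which encodes securin, the inhibitor of separase, stood apart in sign. It lay between 8.71 and 8.91 (median 8.81) in angiogenic and 8.78 and 9.01 (median 8.90) in non angiogenic islets. The groups overlapped, the difference was -0.09 (SE 0.05, limma adjusted p = 0.47) and its 95% interval ran from -0.19 to 0.02.

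The chromosomal passenger complex, which corrects kinetochore attachments and later guides cytokinesis, had 3 of its 4 genes higher. Incenp, the scaffold, lay between 8.96 and 9.23 (median 9.10) in angiogenic and 8.80 and 8.94 (median 8.85) in non angiogenic islets. No array of either group crossed into the other, and the difference was 0.24 (SE 0.05, limma adjusted p = 0.0132). Birc5, survivin, lay between 8.70 and 8.93 (median 8.81) in angiogenic and 8.53 and 8.69 (median 8.60) in non angiogenic islets, also without overlap. It differed by 0.21 (SE 0.05, limma adjusted p = 0.0245). Aurkb, the kinase of the complex, lay between 10.63 and 10.89 (median 10.81) in angiogenic and 10.40 and 10.66 (median 10.59) in non angiogenic islets. Its ranges overlapped only at angiogenic array 2 and non angiogenic array 1, and it differed by 0.22 (SE 0.06, limma adjusted p = 0.0395). Cdca8, borealin, differed by 0.23 (SE 0.06) and came just short of the threshold (limma adjusted p = 0.051).

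Among 6 genes of the centromere and kinetochore, 1 was higher. Cenpe, the kinetochore motor CENP-E, lay between 9.29 and 9.57 (median 9.41) in angiogenic and 8.90 and 9.42 (median 9.07) in non angiogenic islets. Only non angiogenic array 3 lay within the angiogenic range, and the difference was 0.31 (SE 0.08, limma adjusted p = 0.0347). Cenpa, the histone of centromeric chromatin, had the larger difference of 0.35 with a wider spread (SE 0.14, limma adjusted p = 0.245), from 9.82 to 10.45 (median 9.98) in angiogenic and 9.33 to 10.01 (median 9.75) in non angiogenic islets. Nuf2, of the NDC80 complex, lay between 8.98 and 9.50 (median 9.33) in angiogenic and 8.58 and 9.26 (median 9.00) in non angiogenic islets. Over all arrays both genes overlapped widely between groups, and Nuf2 differed by 0.29 (SE 0.13, limma adjusted p = 0.31). Among replicates 1 to 3 alone, and among replicates 4 to 6 alone, the groups did not overlap for Cenpa or Nuf2. The other subunits Ndc80 and Spc25 differed by 0.16 (SE 0.08) and 0.08 (SE 0.12), and the kinetochore protein gene Cenpf by 0.17 (SE 0.07), none past the threshold.

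Of 6 kinesin motors 2 were higher, with a median difference of 0.29. Kif4, the chromosome-bound motor of the condensing chromosome and central spindle, lay between 9.06 and 9.27 (median 9.16) in angiogenic and 8.71 and 8.91 (median 8.83) in non angiogenic islets. All angiogenic arrays lay above all non angiogenic ones, by 0.34 on average (SE 0.05, 1.26-fold, limma adjusted p = 6.09e-04), the smallest adjusted p of the mitosis genes. Kif20a, the motor MKLP2 of the cleavage furrow, lay between 9.77 and 10.04 (median 9.93) in angiogenic and 9.24 and 9.76 (median 9.66) in non angiogenic islets. These ranges nearly touched without overlap (9.77 against 9.76), and the difference of the means was 0.37 (SE 0.09, limma adjusted p = 0.0264). Kif2c, the microtubule-depolymerizing MCAK, had the largest difference of all 41 genes, 0.42 (SE 0.13), but did not pass (limma adjusted p = 0.0908). It lay between 8.66 and 9.07 (median 8.88) in angiogenic and 8.03 and 8.72 (median 8.60) in non angiogenic islets, where arrays 1 and 2 were far below the other 4. Kif11, the spindle motor Eg5, differed by 0.24 (SE 0.08), Kif23, of the central spindle, by 0.21 (SE 0.07) and Kif15 by 0.17 (SE 0.06), and none of these passed.

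Spindle assembly and cytokinesis was the largest role in which no gene passed, with differences of 0.11 to 0.29 in its 7 genes. Dlgap5, the spindle protein HURP, lay between 9.31 and 9.70 (median 9.52) in angiogenic and 8.96 and 9.38 (median 9.25) in non angiogenic islets, with an overlap of the ranges and a difference of 0.29 (SE 0.08, limma adjusted p = 0.0705). Hmmr differed by 0.26 (SE 0.10), and Anln, the anillin of the contractile ring, by 0.23 (SE 0.06, limma adjusted p = 0.0503). The microtubule bundler gene Prc1 differed by 0.20 (SE 0.08), Tpx2, which activates Aurora A, by 0.20 (SE 0.07), Ect2, an activator of RhoA, by 0.19 (SE 0.06) and Nusap1 by 0.11 (SE 0.06). Of the genes of chromosome structure, Mki67, which encodes the proliferation marker Ki-67, was higher. It lay between 11.70 and 11.92 (median 11.79) in angiogenic and 11.40 and 11.68 (median 11.56) in non angiogenic islets. The groups did not overlap, and the difference was 0.25 (SE 0.06, limma adjusted p = 0.0193). Top2a, topoisomerase II alpha, differed by 0.15 (SE 0.11, limma adjusted p = 0.622). It has 2 clusters of its own and 2 more shared with other symbols, and the brighter of its own was used.

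The remaining regulators did not pass. Melk, a kinase gene, differed by 0.33 (SE 0.10, limma adjusted p = 0.0721), between 8.92 and 9.27 (median 9.03) in angiogenic and 8.43 and 8.99 (median 8.79) in non angiogenic islets. Cdca3, which encodes the trigger of mitotic entry TOME-1, lay between 9.41 and 9.70 (median 9.60) in angiogenic and 9.03 and 9.44 (median 9.34) in non angiogenic islets, a difference of 0.29 (SE 0.08, limma adjusted p = 0.0525). Foxm1, a transcription factor of late cell cycle genes, differed by 0.19 (SE 0.06, limma adjusted p = 0.0705). In all, 8 mitosis genes had a limma adjusted p between 0.05 and 0.1, and these 3 were among them. Groups that did not overlap were found for 7 of the 41 genes, all higher in angiogenic islets (Ccna2, Aurka, Birc5, Incenp, Kif20a, Kif4 and Mki67), and for 0 that were lower, against 2.85% and 0.923% of all genes.

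**Figure D3:**
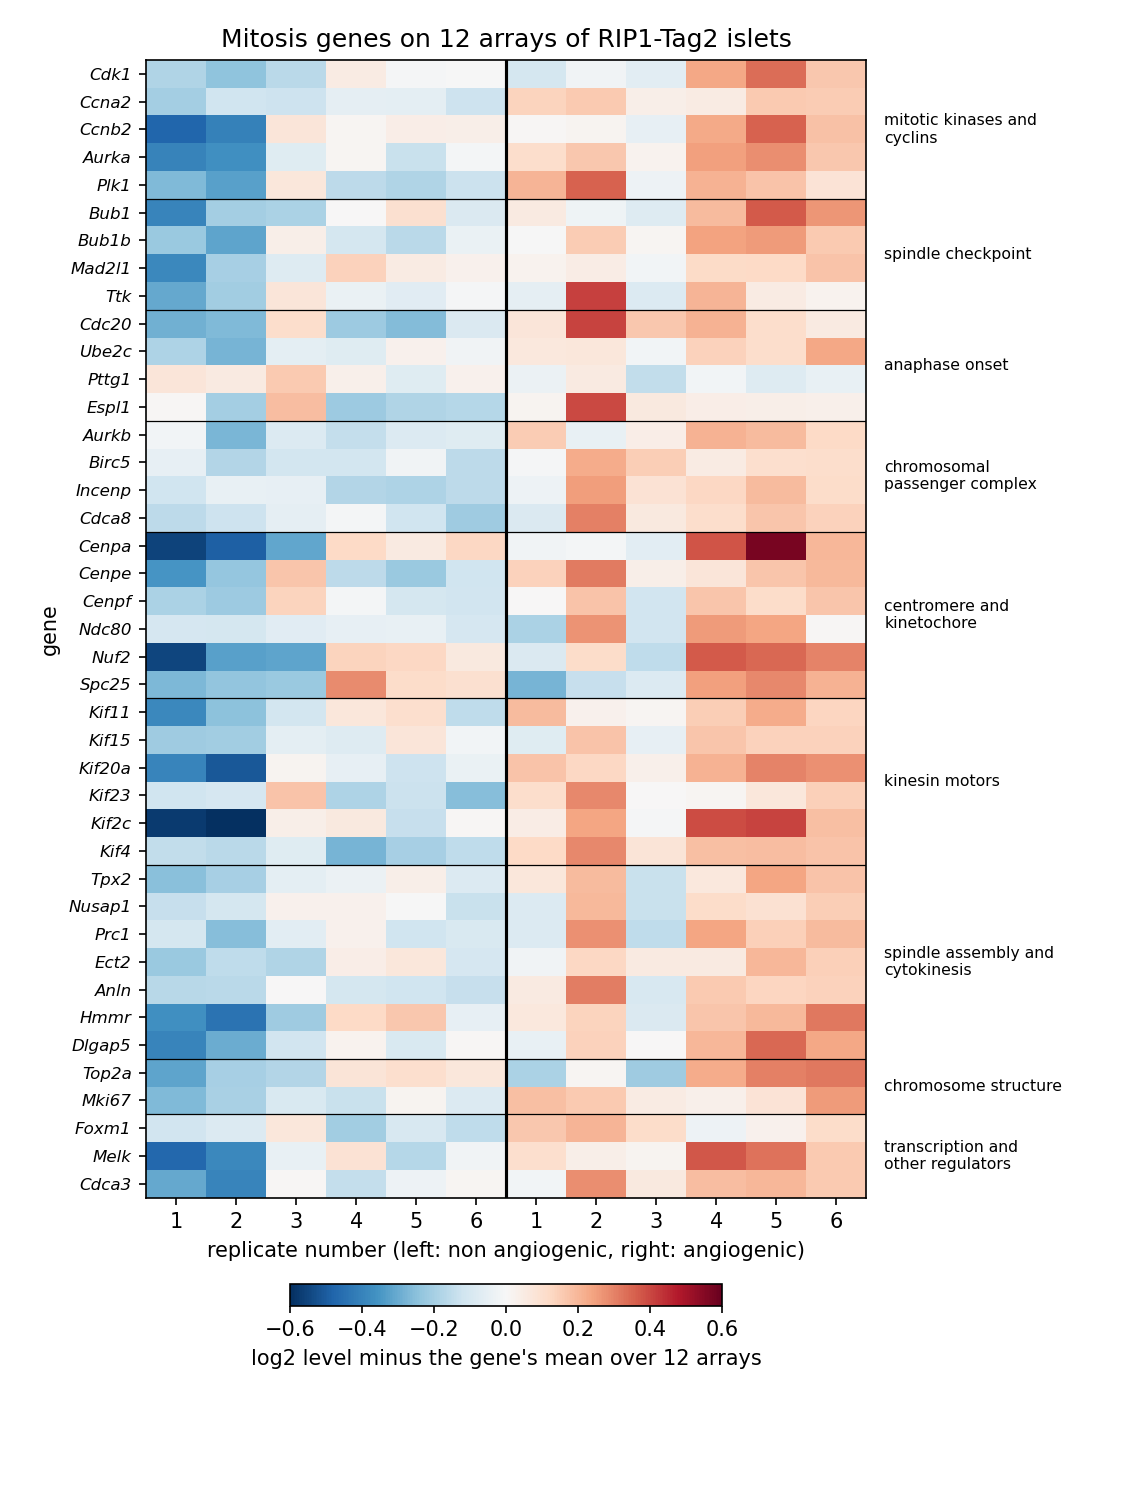
Log2 level of the 41 mitosis genes (rows, grouped by role) on the 12 arrays (columns: non angiogenic replicates 1 to 6 left, angiogenic right), each minus the gene's mean over the arrays (colour). Angiogenic arrays are mostly red and non angiogenic arrays 1 and 2 mostly blue, and for Spc25, Top2a, Nuf2 and Cenpa replicates 4 to 6 of both groups are redder than replicates 1 to 3.

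Mitosis gene levels also differed between replicates 1 to 3 and 4 to 6. The labels do not say what separates these replicates. A figure legend of the study mentions independent profiling experiments, without naming the arrays of each, so the 6 arrays of a group may not all be independent of each other. With group in the limma model, 17 of the 41 genes were higher in replicates 4 to 6 and 0 lower, at a median of 0.13 over all 41, against 18.0% and 18.8% of all genes. These were Cdk1, Ccnb2, Aurka, Bub1, Mad2l1, Ube2c, Cenpa, Nuf2, Spc25, Kif11, Kif15, Kif2c, Ect2, Hmmr, Dlgap5, Top2a and Melk, of which only Aurka was among the 12 genes higher in angiogenic islets. Spc25 was the clearest case. It lay between 10.94 and 11.14 on the 6 arrays of replicates 1 to 3 and between 11.31 and 11.51 on those of replicates 4 to 6, whichever the group. Of its sum of squares over the 12 arrays, 88.4% lay between these sets of replicates. For Kif4, 0.821% lay between the sets and 87.8% between angiogenic and non angiogenic islets. Over the 41 genes the median share was 45.5% for group, 15.4% for set, 1.35% for their interaction and 26.0% for the rest, and group had the largest share in 25 genes, set in 9 and the rest in 7.

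Each set holds as many angiogenic as non angiogenic arrays, so taking the set as a block cannot change the differences, only their errors. With this block the median SE went from 0.08 to 0.06. Of the 41 genes 28 were then higher and 0 lower, against 5.88% and 2.74% of all genes. The 28 held all 12 genes named above and 16 more, Anln, Bub1, Cdca3, Cdca8, Cdk1, Cenpa, Dlgap5, Ect2, Foxm1, Hmmr, Kif11, Kif2c, Melk, Nuf2, Tpx2 and Ube2c. For Nuf2, the difference of 0.29 then had an SE of 0.06 (limma adjusted p = 0.003), and for Cenpa 0.35 had an SE of 0.06 (limma adjusted p = 0.002). Ccnb2, Cenpf, Espl1, Kif15, Kif23, Mad2l1, Ndc80, Nusap1, Prc1, Pttg1, Spc25, Top2a and Ttk passed in neither fit.

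Within each set the differences were of like size. In replicates 1 to 3 alone (3 against 3), 40 of the 41 genes were positive with a median of 0.24, and 1 passed, Cenpa, at 0.42 (SE 0.08, limma adjusted p = 0.018), against 2.37% of all genes higher and 0.331% lower. In replicates 4 to 6 alone, 40 were again positive with a median of 0.23, and 11 were higher and 0 lower, against 3.11% and 0.737%. Of these 11, 8 were among the 12 called on all arrays. The difference between the sets was tested as the interaction of group and set. No mitosis gene passed, either after adjustment or at an unadjusted p under 0.05. Of all genes 0.00502% passed after adjustment, and 1278 of the 19938 at an unadjusted p under 0.05. With 3 against 3 arrays in each set, this does not show that the sets are alike. The smallest unadjusted interaction p was 0.0721, for Hmmr, which differed by 0.38 (SE 0.09) in replicates 1 to 3 and by 0.15 (SE 0.07) in replicates 4 to 6 in these limma fits. Pttg1 was negative in both, at -0.14 (SE 0.07) and -0.04 (SE 0.06).

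**Figure D4:**
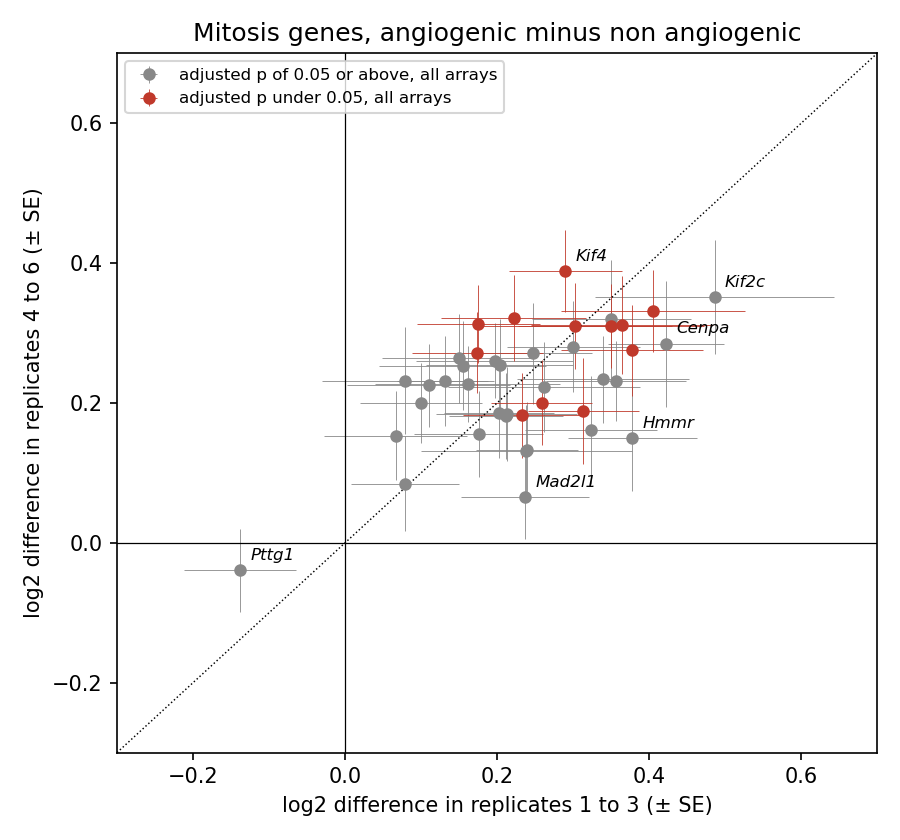
Log2 difference between angiogenic and non angiogenic islets for each of the 41 mitosis genes in replicates 1 to 3 (x axis) and 4 to 6 (y axis), with bars of 1 SE and the line of equal difference dotted. Red points are the 12 genes past the threshold on all arrays. All genes but Pttg1 lie above 0 on both axes.

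The mean over the 41 mitosis genes, given as a description, lay between 9.76 and 9.98 (median 9.94) on angiogenic arrays and between 9.52 and 9.74 (median 9.72) on non angiogenic arrays. The lowest angiogenic arrays were 3 and 1, at 9.76 and 9.80, and array 3 was the lowest of its group for 25 genes. Non angiogenic arrays 1 and 2 were the lowest, at 9.52 and 9.53, and held the lowest level of their group for 21 and 13 genes. Exocrine RNA varied strongly between pools. The mean of 13 markers of pancreatic acinar cells ran from 7.60 to 10.75 on angiogenic and from 7.44 to 11.71 on non angiogenic arrays, and 0 of the 13 genes passed the limma test, 0 also at an unadjusted p under 0.05. In replicates 1 to 3 of either group, the array with the lowest acinar mean (angiogenic array 2 at 7.60 and non angiogenic array 3 at 7.44) had the highest mean of the mitosis genes, 9.95 and 9.74. This did not hold in replicates 4 to 6. Among non angiogenic arrays 4 to 6, array 6 had the lowest acinar mean (9.35) and the lowest mean of the mitosis genes (9.72). Among angiogenic arrays 4 to 6, array 4 was lowest in acinar mean (9.72) and lay below array 5 in mitosis genes (9.95 against 9.98). With the acinar mean as a covariate in limma, 17 mitosis genes were higher on all arrays, and 35 when the set was a block as well, against 3.75% and 6.14% of all genes.

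Other genes of the same processes were counted from lists. Of 74 other mitosis genes measured, 12 were higher and 0 lower, against 3.55% and 0.948% of all genes. The median difference was 0.18 and all 74 were positive (70 in replicates 1 to 3 alone and 73 in replicates 4 to 6 alone). The largest of the 12 were Lmnb1, which encodes lamin B1, at 0.34 (SE 0.07), Gtse1 at 0.34 (SE 0.08) and Stil, a centriole assembly gene, at 0.27 (SE 0.06). With the set as a block 33 of the 74 were higher, against 5.88% of all genes. Of 41 DNA replication genes, 0 were higher and 0 lower in limma, 13 were higher and 0 lower at an unadjusted p under 0.05 (7.76% and 6.59% of all genes), and the median was 0.14. The methods' t-test after adjustment likewise called 0 of them, against 2.94% of all genes called higher. Limma with the set as a block called 9 higher, against 5.88% of all genes. Rrm2, the subunit of ribonucleotide reductase that limits its activity, had the largest difference, 0.48 (SE 0.14), and missed the threshold in the main fit (limma adjusted p = 0.0757). It was among the 9 genes called once the set was a block (limma adjusted p = 3.98e-05). Of the 6 genes of the MuvB and B-Myb complex, Mybl2, which encodes B-Myb, was higher by 0.18 (SE 0.05, limma adjusted p = 0.0364), and the other 5 lay between -0.06 and 0.14. Whether the mitosis genes differ from the replication genes was not tested.

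**Figure D5:**
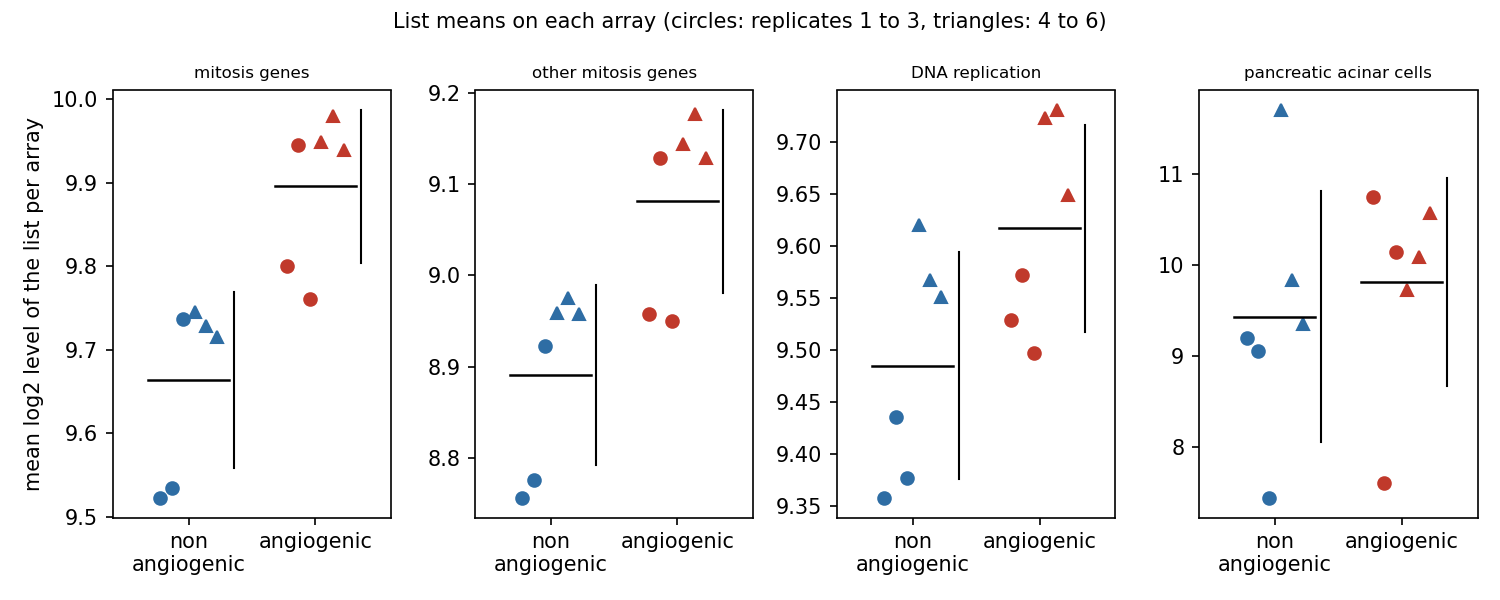
Mean log2 level per array of the mitosis genes, the other mitosis genes, the DNA replication genes and the acinar cell markers (y axes, which differ and do not start at 0), by group (blue non angiogenic, red angiogenic). Circles are replicates 1 to 3, triangles replicates 4 to 6. Horizontal lines are group means and vertical lines 1 SD. The mitosis genes lay between 9.52 and 9.74 in non angiogenic and 9.76 and 9.98 in angiogenic islets, close but without overlap. The other mitosis genes overlapped (8.76 to 8.98 against 8.95 to 9.18), as did the DNA replication genes (9.36 to 9.62 against 9.50 to 9.73). The acinar means overlapped widely.

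Markers of stromal cells were higher in angiogenic islets too. In the same limma fit 3.55% of all genes were higher and 0.948% lower. Of 20 endothelial markers 15 were higher and 0 lower, and their mean lay between 9.17 and 9.35 on angiogenic and 8.72 and 8.88 on non angiogenic arrays. The largest were Cd93 at 0.83 (SE 0.05), Cd34 at 0.79 (SE 0.08) and Cdh5 at 0.76 (SE 0.07). Of 12 markers of pericytes and smooth muscle 11 were higher (means of 8.39 to 8.77 against 7.74 to 7.92), led by Acta2, Pdgfrb and Myl9 at 1.74, 1.08 and 0.89. Of 12 fibroblast markers 11 were higher (9.04 to 9.32 against 7.87 to 8.28), led by Postn, Col1a1 and Mfap5 at 1.62, 1.56 and 1.52. Of 13 macrophage markers 8 were higher (8.35 to 8.72 against 7.96 to 8.24), led by Adgre1, Mrc1 and Csf1r at 0.65, 0.60 and 0.56. Of 10 beta cell markers 0 were higher and 1 lower, Ucn3, which encodes urocortin 3, at -0.25 (SE 0.06). The difference was negative for 9 of the 10, and 3 were lower at an unadjusted p under 0.05 in limma, against 6.59% of all genes. With the set as a block, Ucn3, Nkx6-1 (-0.23) and Slc2a2 (-0.23) were lower, against 2.74% of all genes. Ins2, insulin 2, differed by -0.01 (SE 0.04). Of 6 markers of other islet endocrine cells 0 were higher and 3 lower, Sst at -0.74 (SE 0.08), Pyy at -0.56 (SE 0.10) and Gcg at -0.26 (SE 0.06). No marker of lymphocytes (8), duct cells (4) or erythroid cells (2) passed in either direction in the main fit. At an unadjusted p under 0.05 in limma, Cd4 was higher and Cd79a lower among the lymphocyte markers and 1 erythroid marker was higher. Of all genes 7.76% were higher and 6.59% lower at this cut. With the set as a block 1 erythroid marker was higher and Cd79a lower, against 5.88% and 2.74% of all genes. The lymphocyte mean was 7.42 on non angiogenic array 4 and between 6.52 and 6.70 on the other 11 arrays. The part of these cell types in the mitosis gene differences was not tested.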

How the data were processed

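The authors deposited log2 levels per transcript cluster for 12 Affymetrix arrays, and the submitters' processing notes name Affymetrix Expression Console and RMA. This method subtracts background, gives arrays a common distribution and summarises probes, so it hides changes of total RNA per islet and compresses weak signals. Tool versions and the build were not given in the sources used here, nor whether all arrays were normalized at once. The number of arrays limits the precision.

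Values were used as deposited. Of 35556 clusters, 21789 had 1 gene symbol, 1621 several and 12146 none in the platform annotation. For 999 genes with several clusters the brightest was used, leaving 19938 genes. Groups and replicate numbers came from the labels. R 4.3.3 with limma 3.58.1 (lmFit, eBayes, two-sided, 6 against 6, no covariate) was the main test, with p-values adjusted by Benjamini-Hochberg over all genes, and was tested on simulated data. Sets are replicates 1 to 3 and 4 to 6. Shares of variance are shares of each gene's sum of squares. Promoters came from RefSeq (GRCm38.p6).

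All 42 mitosis genes are named. Levels are given for the 12 largest differences among genes called in the main fit or with the set as a block and for the largest difference in each role, and those of Aurkb, Birc5, Ccna2, Spc25 and Pttg1 as well. Of the other lists the 3 largest rises and falls past the threshold are named, or the largest that missed it. Ins2, Cd4 and Cd79a were named after their values were seen. The mitosis genes, lists and tests were chosen with earlier results of these data known. Alternatives were the replicate number or the set as a block, each set alone, the t-test before and after adjustment, a trend or weights per array in limma, quantile normalization, centring on the median, dropping dim genes, averaging clusters of a gene, an acinar covariate and leaving out each array. The set block with an acinar covariate and the shorter promoter window were added after seeing the data.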

Additional observations from a re-analysis of the deposited data

Results flagged for a closer look

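Within groups of 6 arrays, the gap between an extreme array and its neighbour was compared with the range of the group by Dixon's rule. Of 82 groups of mitosis gene levels and 110 groups in all, chance alone passes about 1 in 20. The separase gene Espl1 stood high on angiogenic array 2 at 8.83, while the other 5 lay close together. Kif23 at 10.32 and Anln at 10.06 both stood high on non angiogenic array 3, which is also the array with the lowest acinar mean of its group. The acinar mean itself stood low on angiogenic array 2 at 7.60. The lymphocyte mean stood high on non angiogenic array 4 at 7.42, and the erythroid mean, over 2 genes, on non angiogenic array 6 at 7.28. The causes were not tested.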

How the results depend on the processing

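Each of the 41 mitosis genes kept the sign of its difference under every alternative, Pttg1 being negative throughout. A block alone, the trend, the t-test and dropping dim genes cannot change a difference, and averaging clusters can change only that of Top2a. The sign was free to change only under the remaining alternatives. In single sets, Spdl1, Ska1, Cks2, Aurkc and Zwint of the other mitosis genes, Cdc6, Gins2, Gins3 and E2f1 of DNA replication and Lin37, Lin52 and Rbbp4 of the MuvB complex changed sign, none of them called on all arrays, and the acinar mean difference was 0.93 in replicates 1 to 3 and -0.17 in 4 to 6. Kif4, Ccna2, Plk1, Cdc20 and Incenp passed in all 12 fits that left out an array. Mki67 passed in 11 of these, Aurka and Kif20a in 8, Birc5 in 6, Bub1b in 5, Aurkb in 3 and Cenpe in 2. Of all 19938 genes, 708 were higher in the main fit, 1058 with the replicate block and 1172 with the set block. The set block with the acinar covariate gave 1225, replicates 1 to 3 alone 473 and replicates 4 to 6 alone 621. The t-test gave 586 after and 1529 before adjustment, quantile normalization 746, array weights 744 and median centring 659. Leaving out an array gave 553 to 715. The mitosis genes higher in angiogenic islets numbered 12 in the main fit, 25 with the replicate block, 28 with the set block, 35 with the set block and acinar covariate, 1 in replicates 1 to 3 alone, 6 and 29 with the t-test after and before adjustment, 20 after quantile normalization and 5 to 15 when an array was left out. For the other mitosis genes the count of 12 became 25 with the replicate block, 33 with the set block, 43 with the acinar covariate added to it, 3 in replicates 1 to 3 alone, 37 with the unadjusted t-test and 8 to 14 without an array. For DNA replication the count of 0 became 8 with the replicate block, 9 with the set block with or without the acinar covariate, 2 in either set alone, 13 with the unadjusted t-test, 1 with array weights, 2 after quantile normalization and 0 to 1 without an array (1 without non angiogenic array 4). For the MuvB and B-Myb complex the count of 1 (Mybl2) became 2 with the set block, 0 in either set alone, 3 with the unadjusted t-test, 0 after median centring or quantile normalization and 0 to 1 without an array (0 without non angiogenic arrays 1, 3, 4 or 5 and without angiogenic arrays 1, 2, 4, 5 or 6). The cause was not tested. The CHR share of promoters was 37.8% in the shorter window. The replicate numbers were not taken to pair the arrays, since that asked for a correlation over 0.1 in every pair: deviations of same-numbered arrays from their group means correlated at 0.44, 0.38, 0.03, 0.54, 0.42 and 0.30 for replicates 1 to 6, and at 0.11, -0.20, -0.34, 0.12, 0.04 and 0.05 once set means were removed. The block raised the count of mitosis genes from 12 to 25, and of the angiogenic arrays 1 and 4 alone correlated best with their own number.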
